A study of Homo sapiens with 24 samples.

Results

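In the human ovarian cancer line A2780, the transcriptional effect of luteolin was set against the effect of an siRNA to VRK1, gene by gene. The comparison used the 12 A2780 libraries of the 24 in the series: 3 with a control siRNA (siCont in the titles, siCtrl in the treatment label), 3 with an siRNA to VRK1 (siVRK1), 3 with the solvent DMSO and 3 with luteolin. The luteolin effect is luteolin minus DMSO, the siVRK1 effect is siVRK1 minus siCont, and the difference is the luteolin effect minus the siVRK1 effect. Each was computed on log2(TPM + 1), where TPM is a length-normalized share of the library's transcripts, and centred so that its median over the 13012 tested genes is 0. The 2 effects have separate controls and share no library. All groups carry the genotype label WT and come from 1 line, and neither the labels nor the notes state the dose of luteolin, the siRNA sequence or the treatment times. Separate cultures are not mentioned for the 3 libraries of a group, so the p-values measure library-to-library spread that may be technical.

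VRK1 (vaccinia-related kinase 1) is a nuclear serine/threonine kinase that phosphorylates chromatin and nuclear envelope proteins such as BANF1 and histones, as well as p53 and several other transcription and DNA repair factors, and it is most active in dividing cells. Luteolin is a plant flavone that has been described as an inhibitor of VRK1 activity, and flavones also act on other kinases and on xenobiotic receptors. An siRNA lowers the VRK1 transcript, and with it the protein, whereas an inhibitor acts on the protein, so the question was which transcripts moved alike, which moved in opposite directions and which moved with only 1 of the treatments.

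The libraries of a group correlated across genes at 0.990 to 0.994 (log2 levels), those of different groups at 0.951 to 0.981, and the DMSO and siCont libraries at 0.975 to 0.981. Genes at 1 TPM or more numbered 11862 to 12862 per library. The treatment label of the second and the third siVRK1 library reads siVRK2 and siVRK3 and the cell line label counts up through the series, and the titles, which name A2780 and siVRK1 throughout, were used. Of 12 ovarian epithelial markers, 3 reached 1 TPM in any library (KRT8, KRT18 and EPCAM), while 5 stayed under 0.1 TPM in all 12, among them PAX8 at 0.0329 TPM or less and MUC16 at 0.0199 TPM or less. Fibroblast markers summed to 85 to 122 TPM, with 7 of 8 detected at 1 TPM or more and FAP at 0.0376 TPM or less. Of 10 leukocyte markers 3 reached 1 TPM (CD4, CD14 and CD68), with a sum of 3.5 to 4.46 TPM with siCont, 4.05 to 4.91 with siVRK1, 3.94 to 4.19 with DMSO and 5.08 to 8.72 with luteolin, while PTPRC stayed at 0.569 TPM or less and CD3E was listed at 0 throughout. Of 7 endothelial markers 2 reached 1 TPM (PECAM1 and ENG), and their list summed to 0.53 to 1.55 TPM with siCont, 0.564 to 1.53 with siVRK1, 0.546 to 1.01 with DMSO and 1.11 to 3.24 with luteolin, with VWF at 0.0061 TPM or less. The part of these markers in the luteolin effect was not tested.

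VRK1 itself was measured first. It stood at 54.4, 53.6 and 55.2 TPM with siCont and at 11.3, 9.41 and 7.98 TPM with siVRK1, so the 3 libraries labelled siVRK1, siVRK2 and siVRK3 were alike. With DMSO it stood at 55.1, 48.8 and 58.7 TPM, and with luteolin at 41.3, 43 and 35.5 TPM. The treated libraries were below their controls in both pairs of groups, without overlap. The siVRK1 effect on VRK1 was -2.32 ± 0.11 log2 units (SE of the fit, n = 3 per group, adjusted p = 1.68e-08), and the luteolin effect was -0.65 ± 0.11 (adjusted p = 0.000189), or -0.43 without centring. The difference was 1.67 ± 0.15 (adjusted p = 1.9e-06). The related kinases VRK2 and VRK3 did not pass the test for either effect or for the difference, with siVRK1 effects of -0.20 ± 0.09 and -0.07 ± 0.08 and luteolin effects of -0.17 ± 0.09 and -0.01 ± 0.08. Without centring, the luteolin effect on VRK3 was 0.205 (adjusted p = 0.0364), the siVRK1 effect on VRK2 was -0.28 (adjusted p = 0.0194), and the differences passed for VRK2 (0.33, adjusted p = 0.0327) and VRK3 (0.349, adjusted p = 0.0176). The VRK2 siVRK1 effect also passed with no filter, with all 24 libraries in the fit and without siCont 3 (adjusted p = 0.0241), and its luteolin effect after quantile normalization (adjusted p = 0.0233) and with all 24 libraries (adjusted p = 0.0483).

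At an adjusted p under 0.05, luteolin raised 3829 genes (29.4% of those tested) and lowered 4169 (32.0%), in all 61.5% of them. The siRNA raised 2490 genes (19.1%) and lowered 2529 (19.4%), in all 38.6%. Changes of at least 2-fold passed for 761 genes up (5.85%) and 401 down (3.08%) with luteolin, and for 139 up (1.07%) and 100 down (0.769%) with siVRK1. The difference passed for 6664 genes, or 51.2%, 3081 higher (23.7%) and 3583 lower (27.5%). It was at least 2-fold in 830 of the higher (6.38% of the tested genes) and 562 of the lower (4.32%). Before centring, the median gene stood 0.22 log2 units higher with luteolin and 0.08 lower with siVRK1, and the median difference was 0.30. Without centring, 75.2% of the called differences were higher, against 46.2% with it. For the luteolin effect the higher share of calls was 69.7% without centring against 47.9% with it, and for the siVRK1 effect it was 33.8% against 49.6%. Directions below are therefore relative to the median gene. The shares of all tested genes given here are the background for the counts of each list below.

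Both effects passed for 3461 genes, and in 2157 of these (62.3%) they had the same direction. Of the same-direction genes, 935 rose with both treatments (7.19% of the tested genes) and 1222 fell with both (9.39%). In the remaining 1304 the directions were opposite: 480 genes rose with luteolin and fell with siVRK1 (3.69%), and 824 fell with luteolin and rose with siVRK1 (6.33%). A gene was counted as specific to a treatment where that effect passed, the other did not, and the difference passed in the same direction. By this rule 1623 genes rose (12.5%) and 1642 fell (12.6%) with luteolin, and 464 rose (3.57%) and 517 fell (3.97%) with siVRK1. Of the 2157 same-direction genes, the difference did not pass in 1235, the luteolin effect was farther from 0 in 763 and the siVRK1 effect in 159. A difference that did not pass does not show that the 2 effects were equal.

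Of the 2529 genes that fell with siVRK1, 1222 (48.3%) also fell with luteolin, where 32.0% of all tested genes did, and 480 (19.0%) rose. Of the 2490 that rose with siVRK1, 935 (37.6%) also rose with luteolin, where 29.4% of all did, and 824 (33.1%) fell, where 32.0% did. Seen from luteolin, 24.4% of its rising genes rose with siVRK1 and 29.3% of its falling genes fell with it. Among the 139 genes raised at least 2-fold by siVRK1, 73 (52.5%) rose with luteolin and 21 fell. Among the 100 lowered at least 2-fold, 29 fell and 30 rose with luteolin, and their median luteolin effect was 0.03. Across the 13012 genes the 2 effects correlated with r = 0.196 and rho = 0.182, with r between 0.135 and 0.241 when single libraries were paired (genes are not independent replicates). The SD of the luteolin effects over genes was 0.616, 1.63 times that of the siVRK1 effects at 0.378.

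**Figure D1:**
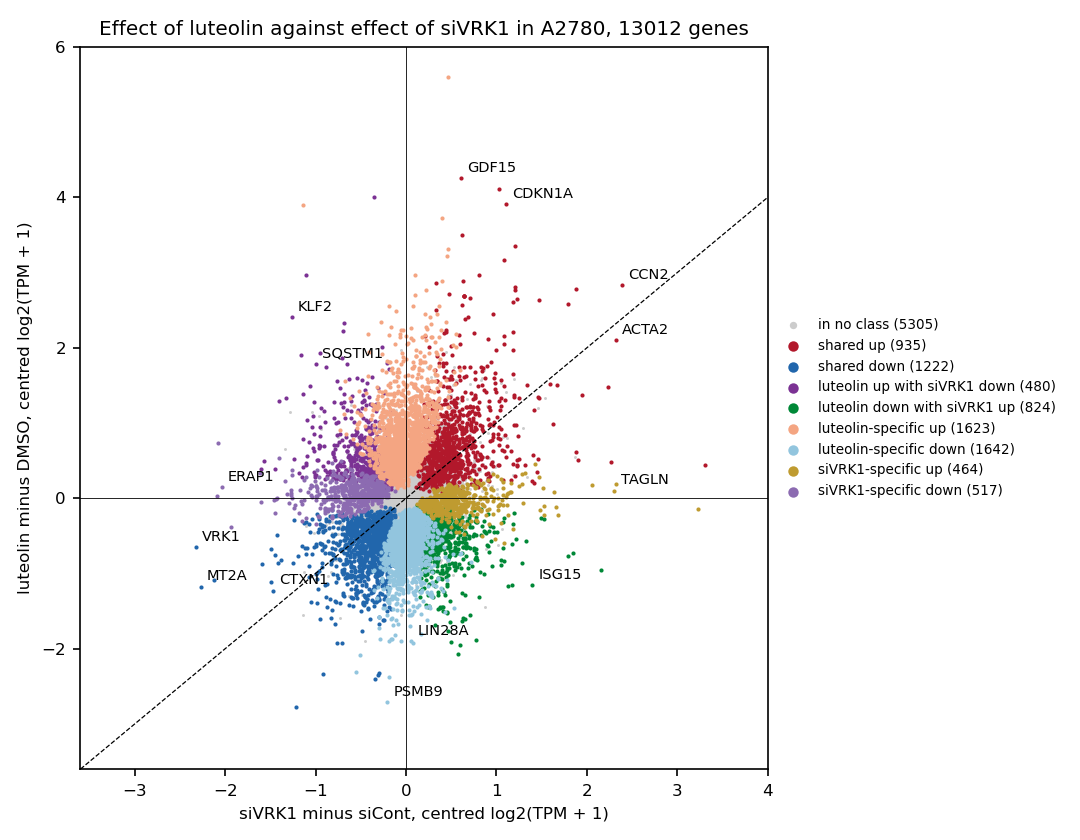
Each point is 1 of 13012 genes, with the centred siVRK1 effect on the horizontal axis and the centred luteolin effect on the vertical axis (log2 of TPM + 1, n = 3 libraries per group), coloured by class, with the dashed line marking equal effects. The points spread farther vertically than horizontally (SD 0.616 against 0.378), and CCN2 and ACTA2 lie near the dashed line while TAGLN and LIN28A lie near the axes.

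The 2 control groups were not interchangeable, and this touches every statement on opposite and specific genes, because the difference contains the gap between siCont and DMSO by construction. Over all tested genes, siCont minus DMSO, centred, was as often positive as negative, by the centring. It was positive in 85.2% of the genes that rose with luteolin and fell with siVRK1, and in 5.83% of those that fell with luteolin and rose with siVRK1. For luteolin-specific genes it was positive in 80.7% of those that rose and in 14.6% of those that fell, and for siVRK1-specific genes in 19.8% and 84.5%. The shared classes stood nearer to the background, with 50.7% for shared up and 42.0% for shared down. The difference also contains the gap between luteolin and siVRK1. Centred, that gap was positive in 99.2% and 7.77% of the 2 opposite classes, in the same order. It was positive in 93.8% of luteolin-specific rises and 10.8% of falls, and in 20.0% and 88.8% for siVRK1-specific genes. Shared up stood at 68.0% and shared down at 30.8%. Whether the opposite and specific genes reflect the treatments or the state of their controls cannot be told apart here.

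**Figure D2:**
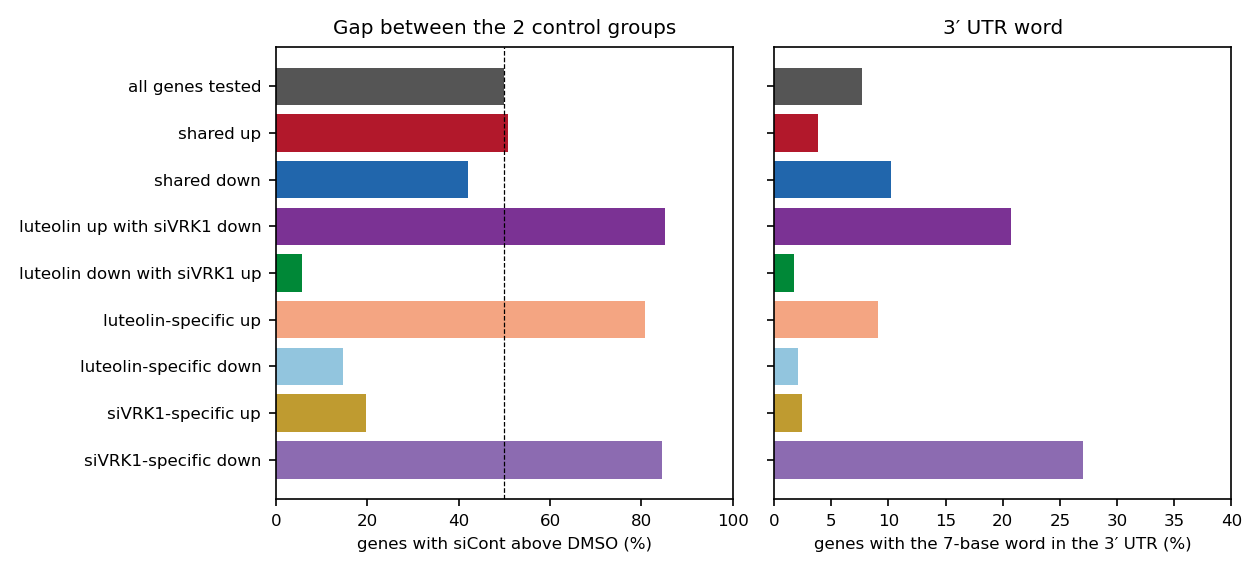
For all tested genes and for each class of genes, the left bars give the share of genes with siCont above DMSO (centred log2 scale, dashed line at an even share), and the right bars give the share whose 3′ UTR holds a 7-base word described with the siVRK1-specific genes. The opposite and specific classes lie far from the dashed line on the left (85.2% and 5.83% for the opposite classes), and the word is most frequent among siVRK1-specific falling genes, at 27.0%.

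Among the shared rises, the targets of the YAP and TEAD transcription factors, which respond to cell spreading and tension, included several of the largest. Of 15 tested YAP and TEAD targets, 9 rose and 2 fell with luteolin (median 0.62), and 11 rose and none fell with siVRK1 (median 0.39). The matricellular growth factor gene CCN2 was at 19.5, 20.2 and 19.3 TPM with siCont, 98.2, 103 and 103 with siVRK1, 6.6, 6.97 and 7.26 with DMSO and 58.1, 63.8 and 73 with luteolin. Both treated groups lay wholly above their controls, and CCN2 had the largest smaller effect of all shared rising genes that met the naming rule. Its luteolin effect was 2.83 ± 0.08 (adjusted p = 4.08e-11) and its siVRK1 effect 2.39 ± 0.08 (adjusted p = 1.01e-09). The difference of 0.44 ± 0.11 passed (adjusted p = 0.0043), but at a pseudocount of 5 it was 0.23 and did not pass (adjusted p = 0.0661). CCN1, the sister gene of CCN2, rose by 2.15 ± 0.05 with luteolin and 1.08 ± 0.05 with siVRK1, and AMOTL2, an angiomotin family scaffold, by 1.38 and 1.19. THBS1, which encodes the matrix protein thrombospondin 1, rose from 7.27, 7.68 and 9.5 TPM to 61.4, 71.6 and 84.6 TPM with luteolin and from 38.6, 32.1 and 33.6 TPM to 130, 116 and 124 TPM with siVRK1. No library of THBS1 overlapped between treated and control groups, and its effects were 2.79 ± 0.12 and 1.88 ± 0.12. Other list members parted: TEAD4, a TEAD factor, fell by 0.65 ± 0.05 with luteolin, and its siVRK1 effect of 0.16 ± 0.05 (adjusted p = 0.0306) no longer passed when any of siCont 1, 2 or 3 or siVRK1 2 was left out (adjusted p 0.0516 to 0.0963). ANKRD1 had -0.52 with luteolin and 0.27 with siVRK1 (adjusted p = 0.0115), the latter not passing without centring (adjusted p = 0.053). Of the 15 targets, 7 rose with both treatments, and the difference passed as higher in 4 and as lower in 5. Without centring, 13 rose and 2 fell with luteolin, and the difference was higher in 8 and lower in 3.

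ACTA2, the smooth muscle actin gene, rose by similar amounts with both treatments. It was at 33.6, 31.9 and 33.1 TPM with siCont, 159, 158 and 162 with siVRK1, 26.6, 23.5 and 26.4 with DMSO and 125, 128 and 140 with luteolin. Control and treated libraries did not overlap in either pair. The luteolin effect was 2.10 ± 0.06 and the siVRK1 effect 2.32 ± 0.06. Their difference of -0.23 ± 0.08 passed (adjusted p = 0.039), turned to 0.07 without centring, and did not pass without any 1 of siCont 1, 2 or 3, siVRK1 2 or 3, DMSO 1 or luteolin 1 or 2 (adjusted p 0.0565 to 0.118). For NUAK2, a kinase of the AMPK-related family, the effects were 1.52 ± 0.15 and 1.59 ± 0.15 and the difference did not pass (-0.07 ± 0.21, adjusted p = 0.795). EPAS1, a hypoxia-inducible transcription factor, showed 1.501 ± 0.13 and 1.67 ± 0.13, also without a called difference (adjusted p = 0.456). EPAS1 and NUAK2 have low levels, at most 6.41 and 8.42 TPM in any library, and at a pseudocount of 5 the EPAS1 effects shrank to 0.66 and 0.76.

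**Figure D3:**
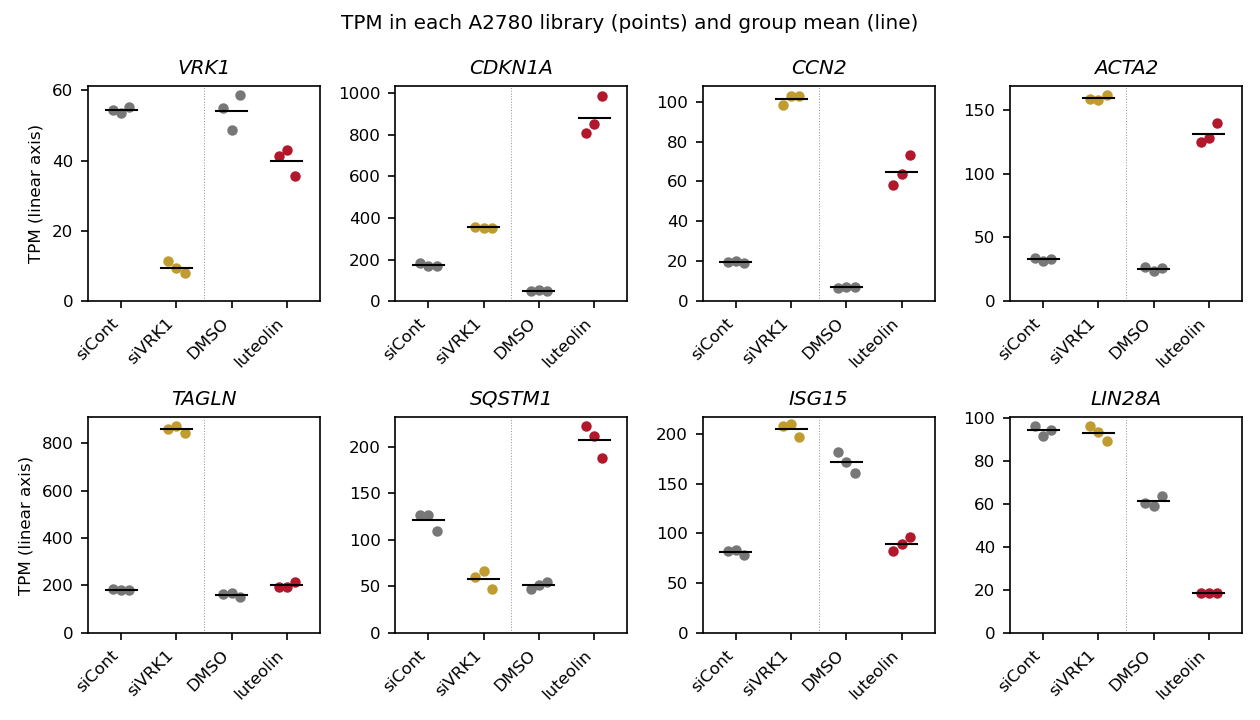
Points are the TPM of 8 genes in each of the 12 A2780 libraries and lines are group means (n = 3), on linear axes that start at 0, with the siRNA pair to the left of the dotted line and the DMSO and luteolin pair to its right. CCN2 and ACTA2 rose in both pairs, TAGLN rose in the siRNA pair, SQSTM1 and ISG15 moved in opposite directions, and LIN28A fell in the luteolin pair.

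Target genes of the tumour suppressor p53, a VRK1 substrate that drives cell cycle arrest and death genes after DNA damage, rose more with luteolin. All 32 tested p53 targets rose with luteolin (median 1.76), while 15 rose and 3 fell with siVRK1 (median 0.25), and the difference passed as higher in 31 (median 1.49). CDKN1A, the p21 inhibitor of cyclin-dependent kinases, was at 183, 168 and 168 TPM with siCont and 359, 354 and 350 with siVRK1. With DMSO it was at 48.1, 52 and 48.3 TPM and with luteolin at 809, 852 and 988 TPM. Every treated library exceeded its controls, and siCont exceeded DMSO. The luteolin effect was 3.91 ± 0.07, the siVRK1 effect 1.11 ± 0.07 and the difference 2.80 ± 0.09 (adjusted p = 1.09e-09). GDF15, a secreted stress cytokine, rose by 4.26 ± 0.07 with luteolin and by 0.61 ± 0.07 with siVRK1. BTG2, an antiproliferative gene, rose by 3.17 and 1.08, and ZMAT3, an RNA-binding p53 target, by 2.45 and 0.96.

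Not all p53 targets shared a direction. Of the 32 tested, 15 rose and 3 fell with siVRK1. Some p53 targets hold the word GATAATA, described below, in their 3′ UTR. With all genes holding it left out, 26 p53 targets were tested, and 15 rose and 1 fell with siVRK1. The part of the word in the siVRK1 falls was not tested. MDM2, the ubiquitin ligase that degrades p53, had effects of 1.78 with luteolin and -0.65 with siVRK1. RRM2B, the p53-induced ribonucleotide reductase subunit, had 1.93 and -0.95. The death receptor TNFRSF10B was at 106, 103 and 103 TPM with siCont, 77.1, 72.7 and 68.8 with siVRK1, 65.9, 60.4 and 71.6 with DMSO and 226, 225 and 219 with luteolin, so it fell with the siRNA (-0.43 ± 0.06) and rose with luteolin (1.53 ± 0.06). The polo-like kinase PLK2 rose with luteolin alone, from 7.99, 4.67 and 8.63 TPM to 124, 124 and 114 TPM (3.73 ± 0.19), against 0.40 ± 0.19 with siVRK1 (adjusted p = 0.121, or 0.0434 without DMSO 2) and a difference of 3.32 ± 0.27.

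Genes of cell division fell with both treatments. Of 40 tested G2/M and mitosis genes, all 40 fell with luteolin (median -1.01) and 32 fell with siVRK1, with 1 rising (median -0.49). The luteolin effect was the larger in most: the difference passed as lower in 29 and as higher in 1. Of 46 G1/S and DNA replication genes, 42 fell and none rose with luteolin (median -0.80), and 37 fell and none rose with siVRK1 (median -0.40), with the difference lower in 25 and higher in 3. Without centring these counts of the difference were 17 lower and 2 higher for G2/M and 11 lower and 8 higher for G1/S. Cyclin genes illustrate the range: CCNB1, the mitotic cyclin, fell by 1.37 with luteolin and 0.47 with siVRK1, and CCNA2, the cyclin of S and G2 phase, fell by 1.21 and 0.98, with no called difference. CCNE1, the cyclin of S-phase entry, was at 63.1, 62.3 and 62.2 TPM with siCont, 31, 29.7 and 29.7 with siVRK1, 58, 56.4 and 60 with DMSO and 47.5, 47 and 39.8 with luteolin. It fell more with the siRNA (-0.95 ± 0.06) than with luteolin (-0.59 ± 0.06; difference 0.36 ± 0.09, adjusted p = 0.00592). That difference did not pass with all 24 libraries in the fit (adjusted p = 0.0572). The 3′ UTR of CCNE1 holds the word GATAATA, described below, and the part of the word in its siVRK1 fall was not tested.

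**Figure D4:**
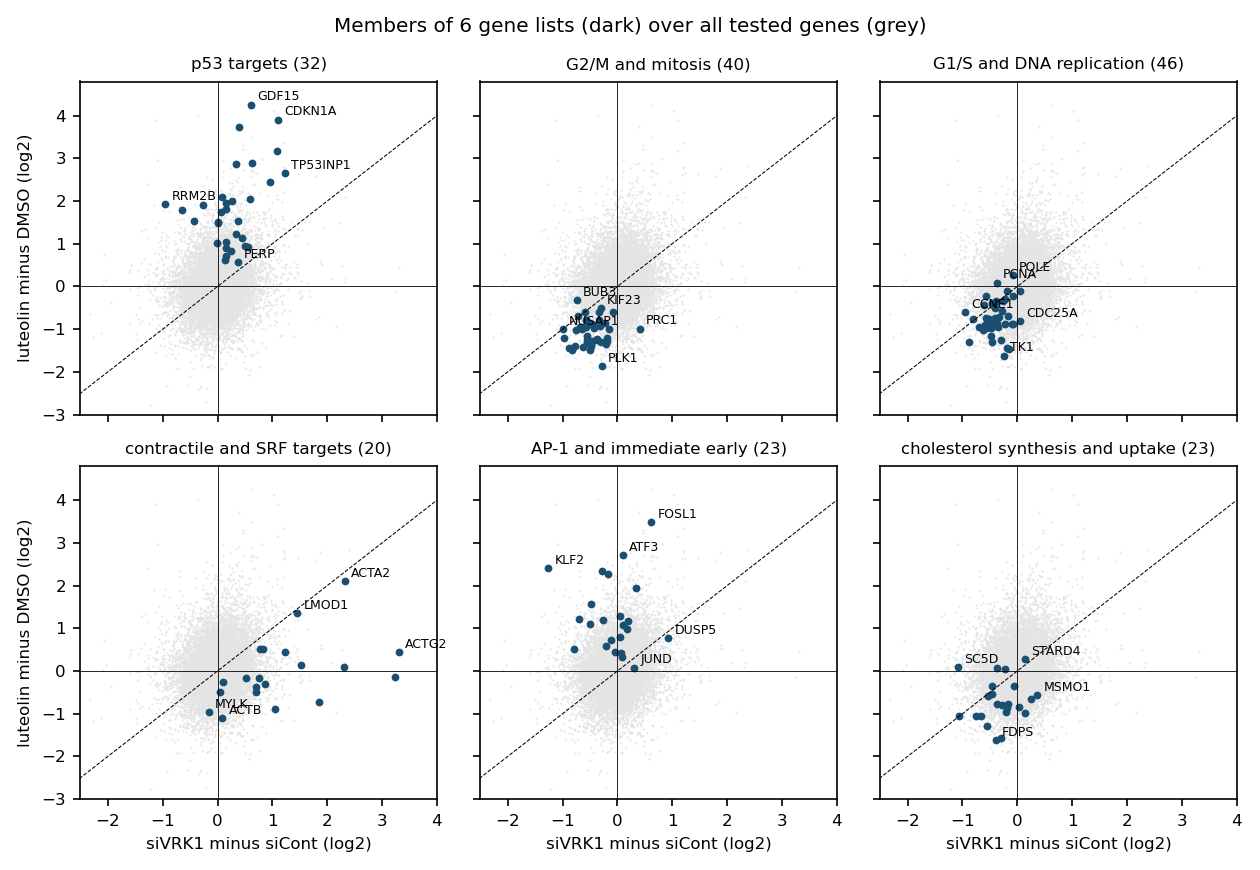
Each panel plots the centred luteolin effect against the centred siVRK1 effect (log2 of TPM + 1) for the tested members of 1 gene list (dark points) over all tested genes (grey), with the dashed line marking equal effects and the number of members in the panel title. The p53 targets lie above the dashed line, G2/M and G1/S genes lie mostly at the lower left, contractile genes lie mostly to the right, and all but JUND of the AP-1 list have called luteolin rises.

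Some cell cycle genes had a large difference between the effects. PLK1, the mitotic polo-like kinase, was at 112, 111 and 114 TPM with siCont and 93.8, 86.2 and 81.9 with siVRK1, and at 142, 140 and 140 with DMSO and 53.9, 45.7 and 34.8 with luteolin. It fell by 1.87 ± 0.11 with luteolin, while the siVRK1 effect of -0.28 ± 0.11 did not pass (adjusted p = 0.0653), although its libraries lay below siCont without overlap, and the difference was -1.59 ± 0.16. The siVRK1 fall of PLK1 did pass at a pseudocount of 5 (adjusted p = 0.041), without centring (0.0223), with the replicate block (0.0488), with all 24 libraries (0.0194) or 6 per effect (0.00421) in the fit, and without luteolin 1 (0.019) or luteolin 3 (0.00463). PRC1, the spindle midzone crosslinker, fell with luteolin (-0.99 ± 0.11) and rose with siVRK1, from 59.9, 60.1 and 63.4 TPM to 81, 77.3 and 73.2 TPM (0.41 ± 0.11, adjusted p = 0.0137). With no filter on low values the siVRK1 rise of PRC1 did not pass (adjusted p = 0.0799). CDKN3, a phosphatase of cyclin-dependent kinases, was at 39.7, 40.2 and 41.5 TPM with siCont, 49.2, 52.8 and 51.6 with siVRK1, 51.8, 46.1 and 49.7 with DMSO and 19.9, 19 and 19.8 with luteolin. Its groups did not overlap within either pair, and its effects were opposite, -1.50 ± 0.06 and 0.41 ± 0.06. PCNA, the sliding clamp of DNA polymerases, fell with siVRK1 (-0.38 ± 0.04) while its luteolin effect of 0.09 ± 0.04 did not pass (adjusted p = 0.0885; difference 0.47 ± 0.06). That luteolin effect was a called rise of 0.307 without centring (adjusted p = 4.7e-05) and 0.519 after quantile normalization (adjusted p = 3.39e-07), and it also passed at a pseudocount of 5, under both other filters, with mitochondrial mRNAs removed and without luteolin 3 (0.123, adjusted p = 0.0387). UHRF1, which keeps DNA methylation through replication, fell with luteolin (-1.47 ± 0.06), against -0.15 ± 0.06 with siVRK1 (adjusted p = 0.0768; difference -1.33 ± 0.09). The siVRK1 fall of UHRF1 passed without centring (-0.223, adjusted p = 0.0108) and in 5 other alternatives (adjusted p 0.0225 to 0.0439).

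The promoters of these genes are shown because PRC1 (the 1 G2/M gene that rose with the siRNA) and CDKN3 (from the list of G1 cyclins and CDK inhibitors) hold the same short word as most G2/M genes. The cell cycle homology element, bound by the DREAM complex that represses division genes outside of G2 and M phase, reads TTTGAA or TTTAAA. On either strand it stood in 28 of the 34 G2/M promoters found in the RefSeq table (82.4%), against 15.5% of the 10024 promoters of tested genes. It stood in 21.3% of the promoters of shared falling genes, in 14.8% of those of luteolin-specific falling genes and in 21.2% of the latter that fell at least 2-fold. The E2F words TTTCCCGC and TTTGGCGC stood in 25.6% and 23.1% of 39 G1/S promoters, against 2.62% and 1.11% of tested genes. A match is a description of these letters, not a site. The RefSeq windows (GRCh38.p14, 250 bases before to 50 after the gene's start, 5′ to 3′ on the gene's strand) are PLK1 at chr16:23678639-23678938 on the plus strand, PRC1 at chr15:90994486-90994785 on the minus strand and CDKN3 at chr14:54396757-54397056 on the plus strand, with the word in capitals (TTCAAA is TTTGAA on the other strand):
PLK1: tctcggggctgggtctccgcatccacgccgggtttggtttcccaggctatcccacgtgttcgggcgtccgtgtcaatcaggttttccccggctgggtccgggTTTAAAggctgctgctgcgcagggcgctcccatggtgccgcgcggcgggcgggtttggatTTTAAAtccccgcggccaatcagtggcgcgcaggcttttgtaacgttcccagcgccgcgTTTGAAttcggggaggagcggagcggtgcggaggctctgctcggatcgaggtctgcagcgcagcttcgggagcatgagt
PRC1: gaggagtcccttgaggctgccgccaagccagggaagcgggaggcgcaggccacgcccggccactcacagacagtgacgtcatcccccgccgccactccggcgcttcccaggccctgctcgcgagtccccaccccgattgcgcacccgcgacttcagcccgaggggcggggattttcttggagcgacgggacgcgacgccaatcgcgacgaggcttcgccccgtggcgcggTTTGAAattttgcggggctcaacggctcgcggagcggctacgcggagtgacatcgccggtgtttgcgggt
CDKN3: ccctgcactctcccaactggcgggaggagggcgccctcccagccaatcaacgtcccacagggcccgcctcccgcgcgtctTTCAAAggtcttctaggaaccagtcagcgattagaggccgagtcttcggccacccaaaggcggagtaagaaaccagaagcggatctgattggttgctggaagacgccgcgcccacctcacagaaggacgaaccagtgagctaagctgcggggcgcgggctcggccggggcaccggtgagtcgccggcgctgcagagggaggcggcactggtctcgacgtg
The word stands in all 3 windows.

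DNA repair genes of homologous recombination and the Fanconi pathway fell with both treatments in part. Of 28 tested, 15 fell and 3 rose with luteolin (median -0.31), 20 fell and none rose with siVRK1 (median -0.39), and the difference passed as higher in 3 and as lower in none. Without centring, 9 fell with luteolin (median -0.09) and the difference was higher in 11 (median 0.35). BRCA1, the scaffold of the repair complex, fell by 0.82 with siVRK1 while its luteolin effect of -0.23 did not pass, and the difference of 0.58 did. FANCI, a subunit of the Fanconi clamp, fell by 0.50 with luteolin and 0.51 with siVRK1.

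Sterol synthesis fell with both treatments. Of 23 tested genes of cholesterol synthesis and uptake, 19 fell and none rose with luteolin (median -0.78), and 15 fell and 2 rose with siVRK1 (median -0.30), with the difference lower in 13 and higher in 1. FDPS, farnesyl diphosphate synthase, was at 297, 291 and 313 TPM with siCont, 222, 219 and 208 with siVRK1, 423, 435 and 433 with DMSO and 164, 163 and 162 with luteolin. The treated libraries lay below their controls in both pairs, by -1.61 ± 0.04 for luteolin and -0.40 ± 0.04 for siVRK1, with a difference of -1.22 ± 0.06. HSD17B7, a sterol reductase, fell by nearly the same amount, -1.04 ± 0.13 and -1.07 ± 0.13 (difference 0.02 ± 0.18, adjusted p = 0.937). HMGCS1, which makes HMG-CoA, fell by 1.06 and 0.75, and INSIG1, the sterol sensor of the pathway, by 1.06 and 0.67. MSMO1 and TM7SF2, later enzymes of the pathway, had luteolin effects of -0.56 and -0.66 and siVRK1 effects of 0.37 and 0.25.

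Heat shock chaperones and chromatin regulators fell together as well. Of 19 tested heat shock genes, 15 fell and 3 rose with luteolin (median -0.78) and 15 fell and none rose with siVRK1 (median -0.24). HSP90AA1, the inducible HSP90, fell by 1.04 and 0.57. The 3 that rose with luteolin were DNAJB4 and the near-identical pair HSPA1A and HSPA1B, whose levels are uncertain because reads are divided between copies. The rise of HSPA1A did not pass without DMSO 2 or 3 or luteolin 1 or 3 (adjusted p 0.079 to 0.167). Of 17 chromatin regulators, all 17 fell with luteolin (median -0.63), and 11 fell and 3 rose with siVRK1 (median -0.25). HMGA1, an architectural chromatin protein, fell by 1.36 and 0.32, whereas DNMT1, the maintenance DNA methyltransferase, had -0.25 with luteolin and 0.31 with siVRK1, with libraries that overlapped within both pairs. HMGN5, a nucleosome-binding protein, was at 81.8, 98.8 and 82.3 TPM with siCont, 37.4, 36.9 and 44.7 with siVRK1, 69.9, 65.9 and 63.7 with DMSO and 28.2, 27.2 and 32.4 with luteolin. Its groups did not overlap within either pair, and its effects were -1.38 ± 0.09 and -1.05 ± 0.09, with a difference just outside the threshold (-0.34 ± 0.13, adjusted p = 0.0506), which passed without any 1 of siCont 2, siVRK1 1, siVRK1 2, DMSO 3 or luteolin 3 (adjusted p 0.015 to 0.0441).

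Only 7 genes fell at least 2-fold with both treatments. CTXN1, a small membrane protein of the cortexin family, was at 79.3, 83.7 and 84.5 TPM with siCont, 27.6, 31.1 and 24.3 with siVRK1, 118, 123 and 111 with DMSO and 63.2, 54.6 and 55.3 with luteolin. Neither pair overlapped, and the effects were -1.23 ± 0.08 and -1.47 ± 0.08 (difference 0.24 ± 0.12, adjusted p = 0.108). The difference passed without centring (0.538, adjusted p = 0.00181), with no filter, after quantile normalization and without siVRK1 2 (adjusted p = 0.0257). Of the metal-binding metallothioneins, which are near-identical copies and therefore uncertain, MT2A fell by 1.17 ± 0.18 with luteolin and 2.27 ± 0.18 with siVRK1, and MT1X by 2.35 ± 0.08 and 0.31 ± 0.08. The zinc exporter SLC30A1, induced by the same metal sensor, rose with luteolin (1.62 ± 0.10) and not with siVRK1 (-0.01 ± 0.10, adjusted p = 0.921). Over the 5 tested genes of that list, 2 rose and 3 fell with luteolin, and none rose and 3 fell with siVRK1.

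Genes that rose with luteolin and fell with siVRK1 included targets of NRF2, the transcription factor of the oxidative stress response. Of 24 tested NRF2 targets, 14 rose and 6 fell with luteolin (median 0.48), 5 rose (3 without siCont 1 or siCont 3) and 7 fell with siVRK1 (median -0.03), and the difference passed as higher in 13 and lower in 6. Without centring, 2 rose and 10 fell with siVRK1, and the difference was higher in 15 and lower in 2. After quantile normalization the difference was higher in 16 and lower in 2. Over all tested genes, 29.4% rose and 32.0% fell with luteolin, and 19.1% and 19.4% with siVRK1. SQSTM1, the p62 autophagy receptor, was at 127, 127 and 110 TPM with siCont and 60, 66.2 and 46.8 with siVRK1. With DMSO it was at 47.5, 51.7 and 54.1 TPM and with luteolin at 223, 212 and 188 TPM. The groups did not overlap within either pair, but the siVRK1 and DMSO libraries overlapped, so siCont and luteolin were the 2 high groups. Luteolin raised SQSTM1 by 1.78 ± 0.11, and its siVRK1 effect was -0.996 ± 0.11, with a difference of 2.78 ± 0.16. NQO1, a quinone reductase, stood at 500, 498 and 493 TPM with siCont, 378, 370 and 367 with siVRK1, 306, 300 and 320 with DMSO and 763, 722 and 711 with luteolin (1.03 ± 0.04 and -0.34 ± 0.04). HMOX1, heme oxygenase, did not follow this pattern and rose with both, by 2.81 and 1.20. SLC7A11, the cystine transporter, had 1.01 and -0.57.

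The endoplasmic reticulum and NF-kB lists held more such genes. Of 20 tested ER chaperones and unfolded protein response genes, 12 rose and 3 fell with luteolin (median 0.23) while 2 rose and 11 fell with siVRK1 (median -0.17), and 7 passed in opposite directions. EDEM1, which feeds misfolded proteins to degradation, had 0.88 and -0.55, and HSPA5, the ER chaperone BiP, had 0.26 and -0.21. The siVRK1 falls of this list were weak: 7, 7 and 5 remained without siCont 2, siCont 3 and siVRK1 1, respectively, and 4 at a threshold of 0.01. Of 13 NF-kB and inflammatory genes, 9 rose and 1 fell with luteolin (median 0.42) and 3 rose and 6 fell with siVRK1 (median -0.05). NFKBIA, the inhibitor that holds NF-kB in the cytoplasm, was at 44.6, 39.1 and 39.8 TPM with siCont, 24.1, 23 and 22.5 with siVRK1, 34.5, 33 and 37.2 with DMSO and 97.8, 95.4 and 104 with luteolin. Its effects were 1.26 ± 0.07 and -0.72 ± 0.07. KLF2, a Krüppel-like transcription factor, also moved in opposite directions. It rose from 6.87, 5.27 and 6.01 TPM to 46.6, 45.7 and 35.4 TPM with luteolin. With siVRK1 it fell from 8.48, 9.51 and 10.1 TPM to 3.04, 3.19 and 3.01 TPM. No library overlapped, and the effects were 2.41 ± 0.12 and -1.26 ± 0.12 (difference 3.66 ± 0.17, adjusted p = 1.03e-08).

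In the other direction, ISG15, an interferon-induced ubiquitin-like protein, was among the genes that fell with luteolin and rose with siVRK1. It was at 82.5, 83.3 and 78.4 TPM with siCont, 208, 210 and 197 with siVRK1, 182, 172 and 161 with DMSO and 81.9, 89.5 and 96.2 with luteolin. Both pairs were separate, and the siVRK1 and DMSO libraries were the high ones. The luteolin effect was -1.15 ± 0.06 and the siVRK1 effect 1.40 ± 0.06 (difference -2.56 ± 0.09, adjusted p = 1.34e-09). IRF9, which carries interferon signals to DNA, had -1.61 ± 0.12 and 0.65 ± 0.12, and IFI27, another interferon-induced gene, -1.63 and 0.62. The interferon-stimulated genes did not move as 1 group: of 25 tested, 2 rose and 14 fell with luteolin (median -0.41), and 4 rose (2 without siVRK1 3) and 8 fell with siVRK1 (median -0.17), and the median difference of -0.21 turned to 0.09 without centring. IFI35, for example, fell with both, by 2.34 and 0.92, and OAS3, a sensor of double-stranded RNA, fell with siVRK1 (-1.27 ± 0.12) and not with luteolin (0.12 ± 0.12, adjusted p = 0.432, or 0.333 and passing without centring).

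Contractile genes driven by serum response factor (SRF) separated the treatments. Of 20 tested, 16 rose and none fell with siVRK1 (median 0.84), whereas 6 rose and 11 fell with luteolin (median -0.16). Without centring 8 rose and 7 fell with luteolin (median 0.06), and after quantile normalization 7 rose and 5 fell (median 0.05). The difference passed as lower in 18 and as higher in none (median -1.01). TAGLN, the actin-binding protein transgelin, was at 186, 181 and 180 TPM with siCont and 860, 873 and 845 with siVRK1, against 165, 166 and 151 with DMSO and 195, 192 and 216 with luteolin. The siRNA pair was far apart, and the luteolin libraries lay above DMSO without overlap but close to it. Its siVRK1 effect was 2.31 ± 0.05 (adjusted p = 2.67e-11) and its luteolin effect 0.10 ± 0.05 (adjusted p = 0.0907), with a difference of -2.21 ± 0.07 (adjusted p = 1.09e-09). The luteolin effect on TAGLN was a called rise of 0.32 without centring (adjusted p = 0.000104) and 0.399 after quantile normalization (adjusted p = 8.19e-05), and it also passed at a pseudocount of 5, under both other filters and without DMSO 2 (0.153, adjusted p = 0.0339) or luteolin 2 (0.156, adjusted p = 0.0272). MYL9, a myosin light chain of smooth muscle, rose from 440, 433 and 433 TPM to 841, 878 and 858 TPM with siVRK1 and fell from 569, 574 and 547 TPM to 385, 326 and 348 TPM with luteolin (1.06 ± 0.05 and -0.89 ± 0.05, the latter -0.47 after quantile normalization). CNN1, calponin, had -0.72 with luteolin and 1.84 with siVRK1, and SRF itself -0.16 and 0.76. ACTB, the cytoplasmic actin, fell by 1.10 with luteolin and had 0.09 with siVRK1, which did not pass. Within this list ACTA2 and LMOD1, an actin nucleator with effects of 1.35 and 1.46, were the members that rose at least 2-fold with both.

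Matrix genes moved partly with the contractile genes. Of 27 tested matrix and mesenchymal genes, 14 rose and 3 fell with siVRK1 (median 0.25), and 9 rose and 6 fell with luteolin (median -0.01). The difference was lower in 13 and higher in 6 (median -0.26, or 0.04 without centring). Over all tested genes, 19.1% rose and 19.4% fell with siVRK1, and 29.4% and 32.0% with luteolin. COL1A1, the collagen I chain, had -0.69 with luteolin and 0.76 with siVRK1, and LOXL2, a collagen crosslinker, -0.06 (not called) and 1.29. TIMP2, a metalloproteinase inhibitor, was at 7.13, 7.2 and 7.64 TPM with siCont, 10.1, 10.2 and 9.98 with siVRK1, 17.4, 18.8 and 18.6 with DMSO and 6.73, 6.98 and 5.03 with luteolin. It rose with the siRNA (0.49 ± 0.10) and fell with luteolin (-1.64 ± 0.10) without overlap. Fibroblast markers, some of which are also matrix genes, summed to 85 to 87.5 TPM with siCont, 110 to 122 with siVRK1, 108 to 122 with DMSO and 88.4 to 93.5 with luteolin, and their part in these results was not tested. In bulk libraries, fewer cells of a type and less RNA per cell cannot be told apart.

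Luteolin-specific rises included immediate early genes, the fast responders to growth and stress signals. Of 23 tested AP-1 and immediate early genes, 22 rose and none fell with luteolin (median 1.11), while 3 rose and 5 fell with siVRK1 (median 0.04, or -0.04 without centring), and the difference passed as higher in 21. FOS, an AP-1 subunit, was at 5.24, 5.77 and 5.36 TPM with siCont, 4.23, 4.73 and 3.31 with siVRK1, 6.04, 4.47 and 6.16 with DMSO and 48.7, 33.6 and 31.9 with luteolin. The luteolin libraries stood alone, with an effect of 2.34 ± 0.16 against -0.27 ± 0.16 for siVRK1 (adjusted p = 0.204; difference 2.61 ± 0.23). ATF3, a stress-induced transcription factor, was at 13.3, 13.8 and 14.4 TPM with siCont and 12.6, 16.4 and 13.3 with siVRK1, and rose from 13.2, 10 and 16.7 TPM to 111, 102 and 104 TPM with luteolin. Its effects were 2.71 ± 0.14 and 0.09 ± 0.14, with a difference of 2.61 ± 0.20 (adjusted p = 4.08e-07). DDIT3, the CHOP factor of the integrated stress response, had 2.27 ± 0.09 and 0.23 ± 0.09 (adjusted p = 0.0565), the latter passing without any 1 of DMSO 1 or 3 or luteolin 1 or 3 (adjusted p 0.0373 to 0.0401). FOSL1, another AP-1 subunit, rose with both (3.50 ± 0.15 and 0.62 ± 0.15). Over 25 genes of ATF4 and amino acid stress, 16 rose and 6 fell with luteolin (median 0.36), and 10 rose and 3 fell with siVRK1 (median 0.10). With luteolin, 19 rose and 2 fell without centring (median 0.58), and 17 rose and none fell after quantile normalization (median 0.55).

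Luteolin-specific falls included LIN28A, an RNA-binding pluripotency factor that blocks let-7 maturation. It was at 96.5, 92 and 94.8 TPM with siCont, 96.3, 93.7 and 89.6 with siVRK1, 60.7, 59.2 and 63.8 with DMSO and 18.3, 18.3 and 18.5 with luteolin. The siRNA libraries overlapped their controls, and the luteolin libraries lay apart from every other library. The luteolin effect was -1.90 ± 0.05 (adjusted p = 2.7e-11), the siVRK1 effect 0.06 ± 0.05 (adjusted p = 0.375) and the difference -1.96 ± 0.07. PSMB9, an immunoproteasome subunit, fell from 34.4, 31.8 and 25.5 TPM to 5.67, 4.07 and 4.1 TPM with luteolin (-2.71 ± 0.17), against -0.21 ± 0.17 with siVRK1 (adjusted p = 0.363). IRF1, the interferon-induced factor that activates such genes, had -1.80 ± 0.10 and 0.16 ± 0.10 (difference -1.97 ± 0.14). Of 18 genes of antigen processing, 5 rose and 8 fell with luteolin (median -0.26) and 3 rose and 5 fell with siVRK1 (median -0.12). HLA-F, a class I molecule, was among those that rose with luteolin (1.23). Over all tested genes, 29.4% rose and 32.0% fell with luteolin, and 19.1% and 19.4% with siVRK1.

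Metabolic and RNA-processing lists depended on the scaling. Of 23 glycolysis and hypoxia genes, 14 fell and 4 rose with luteolin (median -0.48), and 5 fell and 7 rose with siVRK1 (median 0.02), with the difference lower in 15 (median -0.45). Without centring and after quantile normalization the luteolin median was -0.27 and -0.21, and the difference was lower in 8 and 9 (median -0.16 and -0.11). HK2, hexokinase 2, had -0.53 ± 0.07 and 0.38 ± 0.07, and PGAM1, a glycolytic mutase, fell with both (-0.91 and -0.57). Of 30 ribosome biogenesis genes, 21 fell and 4 rose with luteolin (median -0.25), and 5 fell (1 without siCont 3 or siVRK1 1) and 9 rose with siVRK1 (median 0.03), while the median difference of -0.26 turned to 0.04 without centring. With luteolin, 11 fell and 6 rose without centring (median -0.03), and 10 fell and 8 rose after quantile normalization (median -0.08). FBL, the nucleolar methyltransferase fibrillarin, was at 428, 424 and 441 TPM with siCont, 512, 511 and 485 with siVRK1, 482, 474 and 491 with DMSO and 313, 288 and 261 with luteolin, which gave opposite effects of -0.97 ± 0.05 and 0.30 ± 0.05 without overlap. Of 28 splicing factors and CLK kinases, 17 fell and 4 rose with luteolin (median -0.42), and 12 fell and 3 rose with siVRK1 (median -0.15), where 32.0% and 19.4% of all tested genes fell. With luteolin, 14 fell and 9 rose without centring (median -0.20), and 11 fell and 10 rose after quantile normalization (median -0.09). CLK1, a kinase of splicing factors, rose with luteolin (1.31 ± 0.13) and not with siVRK1 (-0.09 ± 0.13, adjusted p = 0.617). Transcripts annotated as retained introns held 5.46% ± 0.166 (SD, n = 3) of the matched TPM with luteolin, against 3.55% ± 0.117 with DMSO, 4.69% ± 0.120 with siCont and 4.58% ± 0.338 with siVRK1. Mitochondrial mRNAs held 10.5% ± 1.40 of TPM with luteolin, 7.10% ± 1.03 with DMSO, 7.19% ± 0.739 with siCont and 8.04% ± 1.52 with siVRK1, and the part of either share in the gene results was not tested.

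Some genes fell with siVRK1 while their luteolin effect did not pass. ERAP1, a peptidase that trims antigens, was at 26.6, 23.7 and 24.6 TPM with siCont, 5.23, 5.89 and 3.99 with siVRK1, 14.2, 14.3 and 14.7 with DMSO and 17.9, 20.4 and 18.1 with luteolin. It fell with the siRNA (-2.04 ± 0.11), against 0.15 ± 0.11 with luteolin (adjusted p = 0.254, or a called 0.363 without centring), with a difference of 2.18 ± 0.15. BCAN, the proteoglycan brevican, fell from 57.3, 52.6 and 52 TPM to 10.8, 12 and 10.9 TPM with siVRK1 (-2.09 ± 0.11), near the DMSO libraries at 12.5, 13.2 and 13 TPM, and its luteolin effect was 0.03 ± 0.11. ASPH, an aspartyl hydroxylase of the ER, was at 84.1, 80.8 and 79.2 TPM with siCont, 26.1, 22.9 and 25.1 with siVRK1, 46.6, 45.1 and 60.5 with DMSO and 56.5, 56.6 and 56 with luteolin. The siVRK1 libraries stood below all others, and the effects were -1.60 ± 0.09 and -0.05 ± 0.09 (adjusted p = 0.626). SC5D, a late enzyme of sterol synthesis, fell by 1.09 ± 0.11 with siVRK1 and had 0.09 ± 0.11 with luteolin (not passing, or a called 0.304 without centring).

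The word GATAATA, found by an earlier search of these same data and so no independent evidence, was counted in the 3′ UTR of the most abundant A2780 transcript of each gene. It stood in 945 of 12320 tested genes with a 3′ UTR (7.67%), and in 54 of 91 genes that fell at least 2-fold with siVRK1 (59.3%). Among those, the share was 15 of 28 (53.6%) where luteolin also lowered the gene and 39 of 63 (61.9%) where it did not. By class the share was 27.0% of siVRK1-specific falling genes, 20.7% of genes that rose with luteolin and fell with siVRK1, 10.2% of shared falling genes and 2.10% of luteolin-specific falling genes. Genes with the word had a median siVRK1 effect of -0.235 and a median luteolin effect of 0.106, against 0.012 and -0.024 for genes without it, and their 3′ UTRs were longer (median 2420 against 750 bases). An siRNA can also lower transcripts that match bases 2 to 8 of its guide strand in their 3′ UTR, but the siRNA sequence is not given in the sources used here, so the part of such matches in the siVRK1 effect was not tested. VRK1 itself does not hold the word. With the 945 genes left out, r between the effects was 0.206, and 876 genes rose and 1163 fell with both treatments.

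The sites are shown for genes of 3 classes, so that the shared 7 bases can be seen in unlike surroundings. They come from GENCODE release 29 (GRCh38), 5′ to 3′ on the transcript strand, with the word in capitals: MT2A at chr16:56609463-56609491 (plus strand), CUBN at chr10:16824019-16824047 (minus) and CTXN1 at chr19:7924506-7924534 (minus) fell with both treatments, ERAP1 at chr5:96774495-96774523 and, a second time, chr5:96775185-96775213 (both minus) and SC5D at chr11:121308311-121308339 (plus) fell with siVRK1 with no called luteolin effect, and KLHL15 at chrX:23984506-23984534 (minus) fell with siVRK1 and rose with luteolin.
MT2A: ataatgtgaatGATAATAaaacagctttg
CUBN: caaaagttaatGATAATAtagaagcataa
CTXN1: gagccgaacatGATAATAaaagctattat
ERAP1 first: gaaacctttttGATAATAaaaaattgttc
ERAP1 second: tatgtatagatGATAATAatagaaagcac
SC5D: tttgatgcccaGATAATAtattaggcact
KLHL15: aatgcaacataGATAATAgtgtaaatcag
CUBN, the endocytic receptor cubilin, was at 43.2, 39.2 and 41.8 TPM with siCont, 9.3, 6.68 and 8.8 with siVRK1, 21.1, 21.3 and 28.4 with DMSO and 10, 18.8 and 9.73 with luteolin. Its siVRK1 effect of -2.13 ± 0.20 exceeded its luteolin effect of -1.09 ± 0.20 (difference 1.03 ± 0.29, adjusted p = 0.00931). KLHL15, a substrate adaptor of a ubiquitin ligase, had -1.14 ± 0.13 with siVRK1 and 1.39 ± 0.13 with luteolin. The word does not fix the direction, since THBS1 and CCN1, which rose with both treatments, hold it too.

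Among 11 tested transcripts of known VRK1 substrates, 3 rose and 3 fell with luteolin (median 0.00), near the shares of all tested genes (29.4% and 32.0%). With siVRK1, 2 rose and 5 fell (median -0.26), against 19.1% and 19.4% of all. BANF1, which bridges DNA and the nuclear lamina, was at 509, 511 and 526 TPM with siCont, 491, 502 and 482 with siVRK1, 634, 639 and 623 with DMSO and 407, 399 and 373 with luteolin. It fell with luteolin (-0.90 ± 0.04, or -0.43 after quantile normalization) and not with siVRK1 (0.01 ± 0.04, adjusted p = 0.854). H2AX, the histone marked at DNA breaks, fell with both (-1.21 ± 0.05 and -0.37 ± 0.05). COIL, the scaffold of Cajal bodies, fell with siVRK1 (-0.49 ± 0.08) and had 0.00 ± 0.08 with luteolin (a called 0.221 without centring). The 2 siVRK1 rises, of ATF2 and KAT5, did not pass under several alternatives, among them no centring (adjusted p = 0.122 and 0.267). Lamin genes split: LMNB1 fell with both (-1.33 ± 0.06 and -0.32 ± 0.06), LMNB2 fell with luteolin (-0.94 ± 0.06) with a siVRK1 effect of 0.22 ± 0.06 that did not pass without centring (adjusted p = 0.0543), and LMNA rose with luteolin from 51.8, 55 and 55.1 TPM to 102, 107 and 115 TPM (0.77 ± 0.08). The siVRK1 fall of LMNA (-0.26 ± 0.08) did not pass without siCont 2 (adjusted p = 0.0633).

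The remaining lists were mixed. Their background over all tested genes was 29.4% higher and 32.0% lower with luteolin, and 19.1% and 19.4% with siVRK1. Of 25 cell death genes of the BCL2 family and death receptors, 12 rose and 7 fell with luteolin (median 0.38), and 4 rose (2 without siCont 1, siVRK1 2 or siVRK1 3) and 5 fell with siVRK1 (median 0.02). With luteolin, 17 rose and 4 fell without centring (median 0.59), and 9 rose and 5 fell after quantile normalization (median 0.26). BBC3 and PMAIP1, the p53-induced BH3-only genes PUMA and NOXA, rose with luteolin (1.95 and 1.51), and their siVRK1 effects of 0.15 and 0.02 did not pass. Of 15 G1 cyclins and CDK inhibitors, 10 fell and 4 rose with luteolin (6 and 5 without centring, 7 and 4 after quantile normalization), and 3 fell and 4 rose with siVRK1. Of 20 aminoacyl-tRNA synthetases, 11 fell and 2 rose with luteolin (median -0.18). Without centring 6 fell and 6 rose (median 0.03), and after quantile normalization 5 fell and 8 rose (median 0.06). In the same list 7 fell (4 without siCont 1) and 4 rose (2 without any 1 of siCont 1, 2 or 3 or siVRK1 2 or 3) with siVRK1 (median -0.06). Of the 4 tested genes of the aryl hydrocarbon receptor, the flavone-binding xenobiotic sensor, 3 rose with luteolin, among them CYP1B1 (0.65), and none rose and 2 fell with siVRK1.

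**Figure D5:**
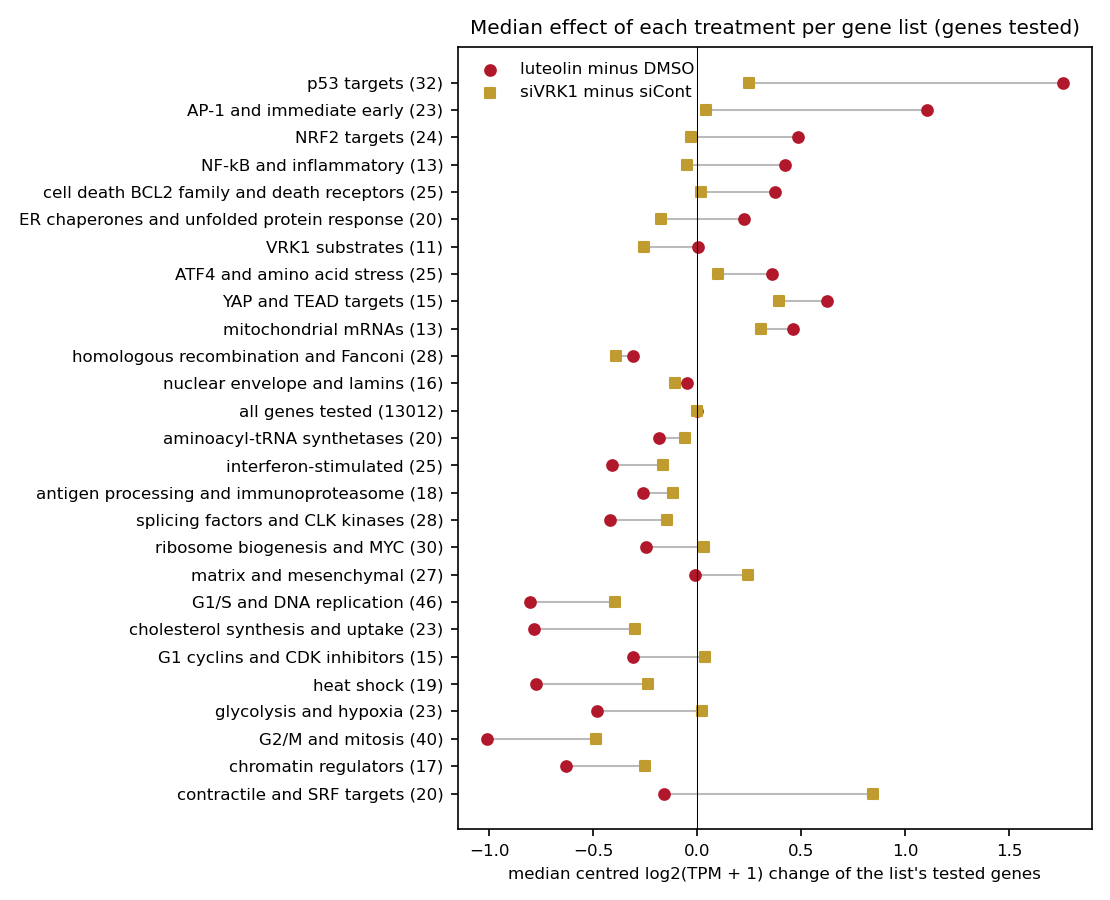
For each list with at least 10 tested genes (number in brackets), circles give the median centred luteolin effect and squares the median centred siVRK1 effect (log2 of TPM + 1), ordered by the median difference. The circles lie farther from 0 than the squares for p53 targets (1.76 against 0.25) and G2/M genes (-1.01 against -0.49), and the order is reversed for contractile genes (-0.16 against 0.84).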

How the data were processed

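Gene expression was measured by RNA-seq in 12 A2780 libraries, 3 in each of 4 groups. The authors deposited 1 table of transcript TPM, a unit in which each library sums to a fixed total, so the sequencing depth is unknown and no counting error can be given. Per the submitters' processing notes the tools were kallisto and FastQC and the build hg19, while versions and settings are not stated there. Repeated lines were identical and were used once, and TPM were summed over distinct transcript IDs per gene symbol. Transcripts with no symbol (0.667% to 1.03% of TPM) were left out.

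Genes at 1 TPM or more in at least 3 of the 12 libraries (13012) were fitted on log2(TPM + 1) with limma 3.58.1 in R 4.3.3 (moderated test, mean-variance trend). The luteolin effect, the siVRK1 effect and their difference were each centred on their median, and p-values were adjusted by Benjamini-Hochberg over all 13012 genes, called at 0.05. Every adjusted p is from this limma fit, two-sided. On simulated data with 50 genes per class above 5 TPM changed 2-fold among 12515 tested, the fit recovered 98% of shared and 92% of opposite, luteolin-specific and siVRK1-specific genes. Both control groups were simulated from a common level. The shares therefore do not cover the gap between siCont and DMSO, smaller changes or genes at lower levels.

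The members and lists were chosen with earlier results of these data known. Genes were named by rank within each class, 6 per class, by the smaller effect (shared and opposite) or the difference (specific), among genes whose highest group mean reached 5 TPM, with libraries that did not overlap in each called effect and an established symbol. Up to 2 members per list with the most positive and the most negative called difference, VRK1 to VRK3 and every VRK1 substrate were added. Other list members named were chosen after their values were seen. Some list members are not reported here. Coordinates are GRCh38, from GENCODE 29 for 3′ UTRs and RefSeq GRCh38.p14 for promoters, and were not mixed with the build of the files. Alternatives covered the pseudocount, filter, scaling, threshold, samples in the fit, the replicate block and each library left out.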

Additional observations from a re-analysis of the deposited data

How the results depend on the processing

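Without centring, luteolin raised 5938 and lowered 2585 genes, and the difference was higher in 5631 and lower in 1861. The classes then held 1225 genes (luteolin up, siVRK1 down), 337 (luteolin down, siVRK1 up), 2925 and 783 (luteolin-specific up and down), and 294 and 840 (siVRK1-specific up and down). With no filter on low values these were 753 and 424 for the opposite classes and 2559 and 2661 for the luteolin-specific ones. At a threshold of 0.01, siVRK1 raised 1625 and lowered 1614 genes, 517 and 743 were shared up and down, and the opposite classes held 238 and 507. Gene values that turned were, without centring, VRK3 with luteolin (0.205), the difference of ACTA2 (0.072) and of KAT5 (0.030) and PSPH with luteolin (0.054), and after quantile normalization, the luteolin effects of BUB3 (0.002), PSPH (0.058) and SLC7A5 (0.077). The turns without centring follow from leaving out the subtracted medians, 0.22 for the luteolin effect and 0.30 for the difference. The cause of the turns after quantile normalization was not tested. Under these and the other alternatives the remaining 205 values of these counts and of r stayed near the main value (counts within 1.5 times), as did all 180 with 1 library left out.

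Leaving out 1 library gave 3424 to 3848 genes higher and 3842 to 4181 lower with luteolin, 2031 to 2649 and 2019 to 2738 with siVRK1, and 2800 to 3152 and 3296 to 3636 for the difference. Shared up genes numbered 756 to 955 and shared down 998 to 1274, and r across genes was 0.1715 to 0.2074. Same-numbered libraries deviated together no more than others (r -0.097 to 0.041, against -0.06 to 0.12 for unlike numbers). No pairing by number was therefore seen, but a weak one could be missed with 3 libraries per group. With a replicate block in the fit, 3197 genes passed in both effects, 1983 of them in the same direction. Depth is unknown, so levels near 1 TPM carry an error that cannot be stated.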
